A study of Mus musculus with 30 samples.

Results

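DNA replication and nucleotide synthesis were examined through 36 genes, which encode the factors that license and unwind origins, the sliding clamp and its loader, the single-strand binding protein, the replicative polymerases and primase, the enzymes that join Okazaki fragments, and 4 enzymes of deoxynucleotide supply. A member was found by its symbol, without regard to case, and the probe with the highest mean signal over the 30 arrays stood for it. Of the 36 genes, 34 had a probe among the 18097 symbols on the array, with 56 probes between them. Gins1 and Gins2, subunits of the helicase cofactor GINS, had no probe under their symbols. Pola1, the catalytic subunit of polymerase alpha, and Pole2, the second subunit of polymerase epsilon, were detected on 0 of the 30 arrays and were not tested. The other 32 members were tested. Of these, 30 were detected on 30 arrays, and Gmnn and Prim1 on 23 arrays each.

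The arrays came from rescue clones of the mouse embryonic stem cell (ESC) line Ainv15, which expresses the reverse tetracycline transactivator (rtTA). In Bub1b_R, Chek1_R, Ppm1g_R and Ppp2r1b_R an shRNA depletes the endogenous mRNA of the named gene, and doxycycline (Dox, 1 ug/ml) turns on a copy that the shRNA cannot bind. Control_R is the control clone, for which the labels also give the strain background 129P2/OlaHsd. Every clone was kept with Dox or withdrawn from it for 5 days, with 3 arrays for each of the 10 conditions and 30 in all. All cells carried rtTA and were grown with leukemia inhibitory factor, first on primary mouse embryonic fibroblasts and then without feeder cells for the 5 days. The paper describes 3 independent clones for each rescue gene, and the labels do not say whether the arrays of a name came from 1 clone or more. They give no age or passage, and nothing in them says that the 3 arrays came from separate cultures. The p-values therefore measure only the spread between these arrays.

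Replication starts from origins that were licensed in G1, when Cdc6 and Cdt1 load the Mcm2 to Mcm7 helicase and geminin (Gmnn) keeps Cdt1 from loading it again. In S phase GINS and Mcm10 help to activate the helicase, RPA covers the single strand, primase and polymerase alpha start each fragment, replication factor C (the Rfc genes) loads the Pcna clamp, and polymerases delta and epsilon extend the strands. Mouse ESCs have a short G1 and spend much of their cycle in S phase, and many replication genes are transcribed at the G1/S transition by E2F factors.

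Promoter stretches of 7 members are shown, 3 because they carry the E2F motif and 4 because the text below turns on these genes. RefSeq windows of assembly GRCm38.p6, each spanning an annotated start and lying mostly upstream of it, were at hand for 28 of the 36 members and for 27025 genes in all. The letters TTTCGCGC or TTTGGCGC, the core of the E2F motif, were searched on both strands. They were in a window of 9 of the 28 members (32.1%) and of 0.929% of all genes. These 9 members were Cdt1, Lig1, Mcm3, Mcm5, Mcm6, Mcm7, Pola1, Pole2 and Rfc3. The following stretches carry the E2F letters, in capitals, on the gene's strand and 5′ to 3′, at chr1:128359725-128359835 (minus strand), chr8:75109336-75109387 (plus strand) and chr5:151651209-151651238 (minus strand), all upstream of the start:

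Mcm6: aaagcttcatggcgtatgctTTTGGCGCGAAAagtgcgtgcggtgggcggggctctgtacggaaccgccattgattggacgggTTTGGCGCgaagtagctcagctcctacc

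Mcm5: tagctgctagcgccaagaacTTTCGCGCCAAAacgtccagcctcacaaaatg

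Rfc3: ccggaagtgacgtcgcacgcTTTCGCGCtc

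In Mcm6 and Mcm5 a pair of matches on opposite strands overlapped, and Mcm6 held a further match nearer its start. The 3 members with the largest falls in the mean change on Dox withdrawal, and Tyms, are shown next by the 150 bases before their starts, at chr11:5878257-5878406 (minus strand), chr7:44548816-44548965 (minus strand), chr8:122567865-122568014 (plus strand) and chr5:30073626-30073775 (minus strand). Capitals mark the Sp1 letters GGGCGG and the NF-Y letters CCAAT, on either strand:

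Pold2: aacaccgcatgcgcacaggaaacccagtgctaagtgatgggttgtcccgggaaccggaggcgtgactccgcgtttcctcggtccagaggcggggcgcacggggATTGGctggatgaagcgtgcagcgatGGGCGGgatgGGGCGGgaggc

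Pold1: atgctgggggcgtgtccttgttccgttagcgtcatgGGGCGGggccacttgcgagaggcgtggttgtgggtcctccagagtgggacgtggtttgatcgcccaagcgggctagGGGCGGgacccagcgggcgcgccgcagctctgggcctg

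Cdt1: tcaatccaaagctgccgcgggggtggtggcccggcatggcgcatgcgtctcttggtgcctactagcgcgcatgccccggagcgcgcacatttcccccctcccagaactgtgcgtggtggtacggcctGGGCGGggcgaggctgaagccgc

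Tyms: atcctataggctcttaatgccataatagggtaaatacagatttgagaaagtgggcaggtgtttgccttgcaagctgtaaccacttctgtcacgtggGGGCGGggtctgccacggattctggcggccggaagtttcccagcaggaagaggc

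None of these 4 stretches held the E2F letters. Cdt1 had them 33 bases after its start. Over the windows, the Sp1 letters were in 20 of 28 members (71.4%) and 38.2% of all genes, and the CCAAT letters in 17 of 28 members (60.7%) and 41.1% of all genes. The table holds a further start of Pold2, and the 150 bases before it have none of the 3 motifs. These matches are letters in a window, and no binding was measured here.

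Before the members, the arrays themselves need a word. They fall into 2 sets by the dimmest signal that counted as detected, which ran from 12.9 to 20.9 in Bub1b_R and Control_R (12 arrays) and from 27.8 to 58.1 in the remaining clones (18 arrays). When Chek1_R, Ppm1g_R or Ppp2r1b_R is set against Control_R, set and clone cannot be told apart. By this measure every comparison of a clone with itself, and of Bub1b_R with Control_R, stays within 1 set. The Control_R arrays carry earlier sample numbers than those of all other clones, Bub1b_R included. The paper states that it also used arrays that were already public. The labels do not say whether Control_R and Bub1b_R were run together, so run and clone cannot be told apart there. Among the targeted genes, Ppm1g fell by 1.25 on the log2 scale on Dox withdrawal in its own clone (adjusted p = 4.5e-09), whereas Bub1b changed by -0.14 (adjusted p = 0.217) and Ppp2r1b by 0.20 (adjusted p = 0.365) in theirs. Chek1 was 0.71 higher without Dox in the arrays labelled Chek1_R (adjusted p = 0.00115), against that label, so every direction given below for Chek1_R is one of the arrays labelled so. On the same arrays the primitive streak gene T was 4.44 higher and the ESC gene Utf1 changed by -0.80 without Dox, directions that T and Utf1 also had in the other 3 clones. Against Control_R, Chek1 in Chek1_R was -1.87 with Dox and -1.07 without, and Bub1b in Bub1b_R -0.70 and -0.67. Ppm1g in Ppm1g_R was -0.33 and -1.74, and Ppp2r1b in Ppp2r1b_R -0.61 and -0.25, the last short of the threshold (adjusted p = 0.158). Bub1b was also below Control_R in Chek1_R, Ppm1g_R and Ppp2r1b_R. The paper describes the Bub1b and Chek1 rescue copies as lacking the sequences that the shRNA targets. A probe may read the rescue copy, the endogenous mRNA or both, and where these probes lie was not examined.

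To ask whether the replication genes respond when the 4 regulators are depleted, each clone without Dox was compared with the same clone with Dox. No member changed by 1.5-fold at an adjusted p under 0.05 in a clone, although smaller shifts were common. Over all 15151 tested probes that call was made for 5.6% in Bub1b_R, 9.27% in Chek1_R, 4.37% in Ppm1g_R, 4.82% in Ppp2r1b_R and 1.1% in Control_R. At an unadjusted p under 0.05 and with no fold limit, limma passed 7, 11, 10, 18 and 7 members in this order. The largest change of a member was 1.41-fold in Bub1b_R, 1.38-fold in Chek1_R, 1.44-fold in Ppm1g_R, 1.35-fold in Ppp2r1b_R and 1.40-fold in Control_R, so that no p-value could have brought a member past the fold limit. The 95% interval of the change, not adjusted for the number of genes, lay inside 1.5-fold either way for 29, 30, 29, 31 and 30 of the 32 members in these clones. The others were Gmnn in all 5 clones, Prim1 in Bub1b_R and Ppm1g_R, Pold1 in Bub1b_R, Tyms in Chek1_R, Pold2 in Ppm1g_R and Pcna in Control_R.

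Without a fold limit, at an adjusted p under 0.05, 5 of the 32 members were lower and 0 higher without Dox in Bub1b_R, against 12.8% and 11.6% of all probes. In Chek1_R 6 were lower and 3 higher, against 16.5% and 14.5%. Ppm1g_R had 5 lower and 3 higher members, against 11.7% and 11.6%. With 12 members lower and 1 higher, against 12.9% and 12.4%, Ppp2r1b_R had the most, and Control_R the fewest, with 1 lower and 2 higher against 3.48% and 4.07%. The members' median change was -0.10, -0.04, -0.03, -0.14 and 0.03 on the log2 scale in Bub1b_R, Chek1_R, Ppm1g_R, Ppp2r1b_R and Control_R, where the medians over all probes lay between -0.02 and 0. The heat map of the members' changes gives all values by role.

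**Figure D1:**
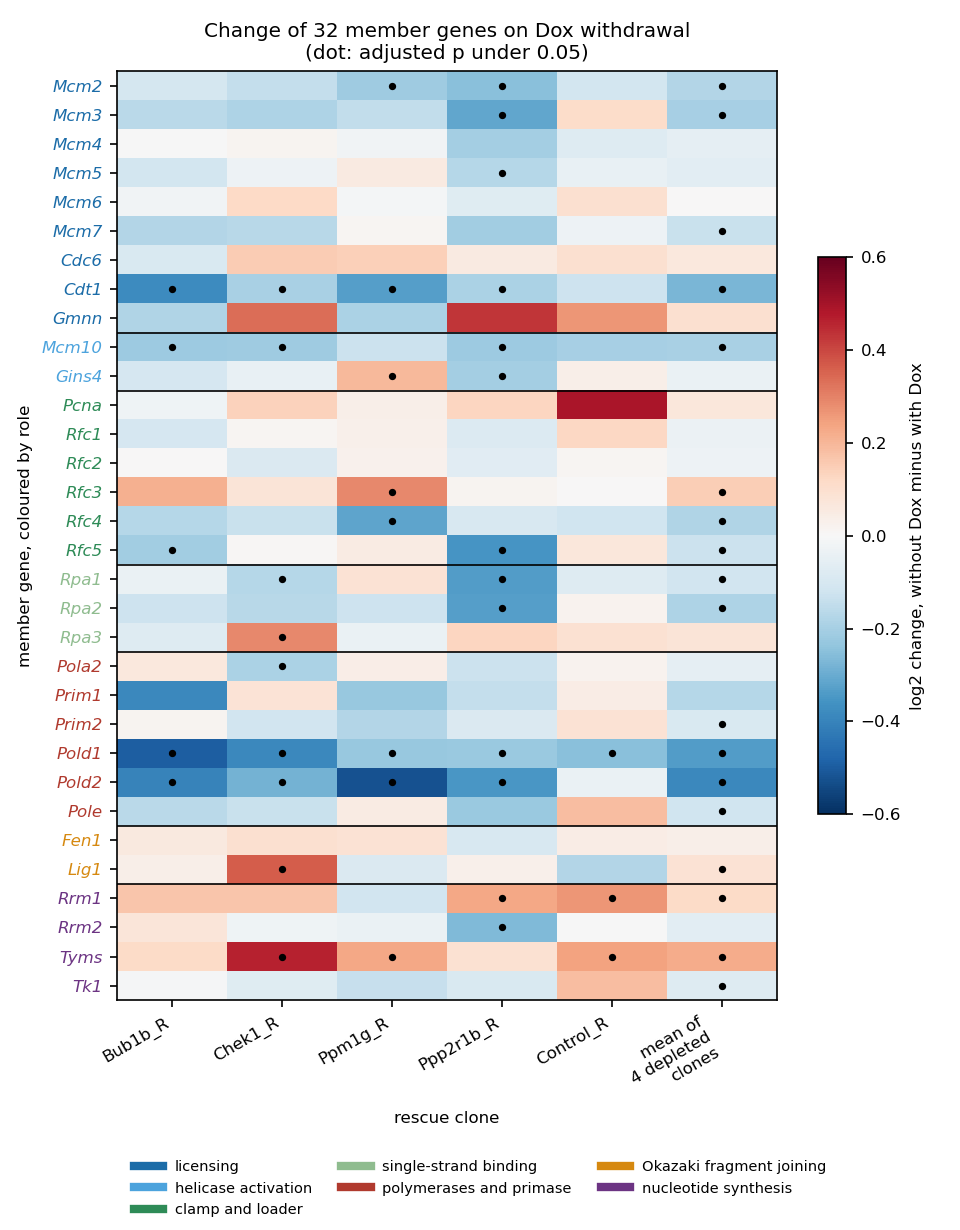
Log2 change on Dox withdrawal (colour, without Dox minus with Dox) of the 32 tested members, by role in rows and by clone in columns, with the mean of the 4 depleted clones at the right, and a black dot where the adjusted p was under 0.05. Pold1 has a dot in each of the 5 clones, and Pold2 and Cdt1 have one in each of the 4 depleted clones but not in Control_R.

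These counts rested on few arrays and on the scaling. Without Ppp2r1b_R +Dox replicate 1, 6 of 13 members stayed past the threshold in that clone, and without its -Dox replicate 3, 8 members passed, 7 of them among the 13. In Ppm1g_R 5, 4, 4 and 5 of 8 members stayed past it without +Dox replicate 2, +Dox replicate 3, -Dox replicate 2 and -Dox replicate 3, in Bub1b_R 3 of 5 without -Dox replicate 1, and in Control_R 1 of 3 without +Dox replicate 1 or -Dox replicate 1. With arrays scaled to a common median in place of quantiles, the lower and higher members were 3 and 0 in Bub1b_R, 1 and 3 in Chek1_R, 5 and 0 in Ppm1g_R, 3 and 0 in Ppp2r1b_R and 0 and 0 in Control_R, all of them among the members named by quantiles. Cdt1, Pold1 and Pold2 were left in Bub1b_R, Rpa3, Pold1, Lig1 and Tyms in Chek1_R, Mcm2, Cdt1, Rfc4, Pold1 and Pold2 in Ppm1g_R, and Rfc5, Rpa1 and Pold2 in Ppp2r1b_R. The members' medians were then -0.01 in Bub1b_R, 0.06 in Chek1_R and -0.14 in Ppm1g_R. Over all probes the median was then 0.04 in Bub1b_R, 0.05 in Chek1_R and -0.06 in Ppm1g_R. The fall of the members' median in Chek1_R thus turned with the scaling, as did the median of all probes. Leaving out 1 array also brought 1 member past 1.5-fold in 3 clones, namely Pold2 in Ppm1g_R without -Dox replicate 1 (-0.61 on the log2 scale), Gmnn in Ppp2r1b_R without -Dox replicate 1 (0.66) and Pcna in Control_R without +Dox replicate 3 (0.62), all named after their values were seen.

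Of the targeted genes Ppm1g alone was called lower on withdrawal, and their levels against Control_R are given above. The mean change was taken over the 4 clones that carry an shRNA against a regulator, called depleted here by their labels. In it, 14 of 32 members were lower and 4 higher at an adjusted p under 0.05, against 24.4% and 22% of all probes, and 0 members passed 1.5-fold, against 3.56%, the largest change being 1.31-fold. At an unadjusted p under 0.05, limma passed 19 members. Without the arrays labelled Chek1_R, an alternative chosen after seeing the data, 11 were lower and 2 higher, all among the 18, Lig1 turned to -0.01, and Prim2, Pole, Rrm1 and Tk1 no longer passed. With median scaling 8 were lower and 2 higher, all among these 18. The members' median in the mean change was -0.07 on the log2 scale, beside -0.01 for all probes. The mean is not relative to Control_R, which the plot of the mean change by role sets beside it.

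**Figure D2:**
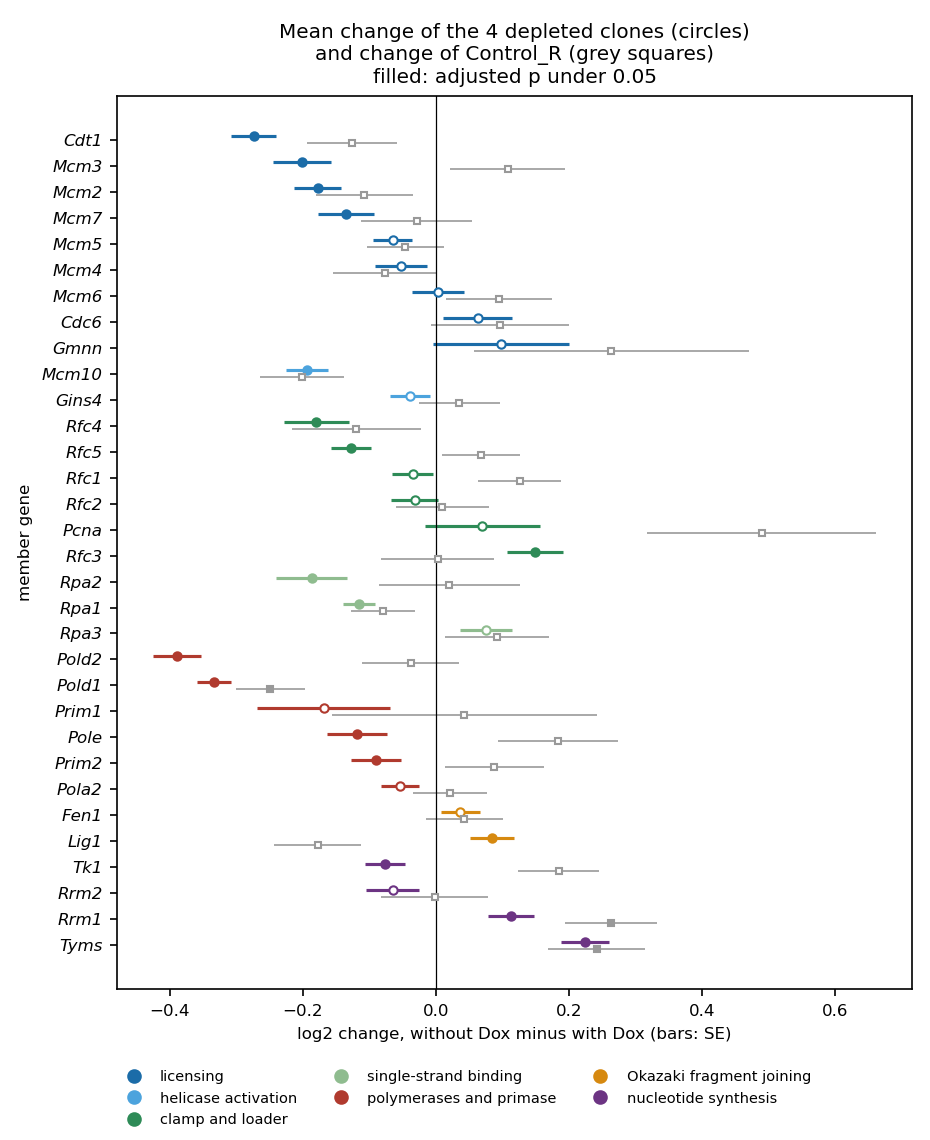
Mean log2 change on Dox withdrawal of the 4 depleted clones (circles, coloured by role) and the change in Control_R (grey squares) for the 32 tested members, with bars for the SE and filled symbols at an adjusted p under 0.05. Pold2 lies at -0.39 with Control_R at -0.04, whereas for Pold1 (-0.33), Mcm10 (-0.19), Tyms (0.22) and Rrm1 (0.11) the Control_R square is on the same side.

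Of the 6 tested polymerase and primase members 4 were lower in the mean change and 0 higher, against 24.4% and 22% of all probes. Their median was -0.14, and Pold1 and Pold2 had the largest falls of the 32 members. Pold1 is the catalytic subunit of polymerase delta, which extends the lagging strand, and Pold2 is the subunit that holds its complex together. Changes below are on the log2 scale, given ± the SE of the fit for 3 arrays a condition, and levels are normalised log2 signals of replicates 1 to 3.

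Pold2 in Bub1b_R was 11.42, 11.49 and 11.58 with Dox and 11.07, 11.09 and 11.12 without it, a change of -0.40 ± 0.07 (adjusted p = 0.000177). In Chek1_R the signals were 11.43, 11.32 and 11.22 with Dox and 11.09, 10.96 and 11.07 without (-0.28 ± 0.07, adjusted p = 0.00408). Ppm1g_R gave 11.07, 11.12 and 11.04 with Dox and 10.73, 10.45 and 10.49 without (-0.52 ± 0.07, adjusted p = 9.94e-06). In these 3 clones every array without Dox was below every array with it. Ppp2r1b_R gave 11.06, 10.97 and 10.98 with Dox and 10.57, 10.60 and 10.79 without (-0.35 ± 0.07, adjusted p = 0.000951), again with no overlap. Control_R stood at 11.74, 11.81 and 11.80 with Dox and 11.72, 11.81 and 11.70 without, so that its groups overlapped (-0.04 ± 0.07, adjusted p = 0.825). With median scaling the fall in Chek1_R was -0.17 and did not pass. The mean change of the 4 clones was -0.39 ± 0.04 (adjusted p = 3.46e-09). Minus the change in Control_R, the fall was -0.37 ± 0.10 in Bub1b_R (adjusted p = 0.0198) and -0.49 ± 0.10 in Ppm1g_R (adjusted p = 0.0025), whereas -0.24 ± 0.10 in Chek1_R (adjusted p = 0.107) and -0.31 ± 0.10 in Ppp2r1b_R (adjusted p = 0.0602) did not pass. With median scaling the difference for Ppm1g_R passed and that for Bub1b_R (-0.29) did not.

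Pold1 fell in all 5 clones, Control_R included. In Bub1b_R its signals were 12.16, 12.17 and 12.10 with Dox and 11.61, 11.71 and 11.63 without (-0.49 ± 0.05, adjusted p = 1.19e-07). Chek1_R had 12.35, 12.45 and 12.34 with Dox and 12.02, 11.99 and 11.97 without (-0.39 ± 0.05, adjusted p = 2.02e-06). The groups were far apart in both clones. Ppm1g_R had 11.99, 11.95 and 12.01 with Dox and 11.80, 11.73 and 11.74 without (-0.23 ± 0.05, adjusted p = 0.00204). For Ppp2r1b_R the values were 12.38, 12.40 and 12.34 with Dox and 12.13, 12.12 and 12.20 without (-0.23 ± 0.05, adjusted p = 0.00231). The arrays of Control_R also fell without overlap. They read 12.54, 12.36 and 12.42 with Dox and 12.17, 12.19 and 12.20 without (-0.25 ± 0.05, adjusted p = 0.00355). With median scaling the changes in Ppp2r1b_R (-0.22) and Control_R (-0.26) did not pass. Only the fall in Bub1b_R differed from that in Control_R (-0.24 ± 0.07, adjusted p = 0.029), and this call was lost with median scaling (-0.18). The change also differed among the 4 depleted clones (F-test, adjusted p = 0.0162).

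The remaining polymerase and primase members moved less. Pole, the catalytic subunit of polymerase epsilon, had a mean change of -0.12 ± 0.05 (adjusted p = 0.0327), and its change in Ppp2r1b_R lay -0.41 ± 0.13 from that in Control_R (adjusted p = 0.0466). Prim2, the large primase subunit, had a mean change of -0.09 ± 0.04 (adjusted p = 0.0482). Pola2, the regulatory subunit of polymerase alpha, was lower in Chek1_R only (-0.19 ± 0.06, adjusted p = 0.0106), and its change differed among the depleted clones (F-test, adjusted p = 0.0386). Prim1, the small primase subunit, was dim, with values from -0.39 ± 0.20 in Bub1b_R to 0.08 ± 0.20 in Chek1_R, none past the threshold. In Bub1b_R it was detected on 2 of 3 arrays with Dox and on 0 of 3 without, so that no level was measured there without Dox, and the call it received there without background correction rests on a probe not above background.

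**Figure D3:**
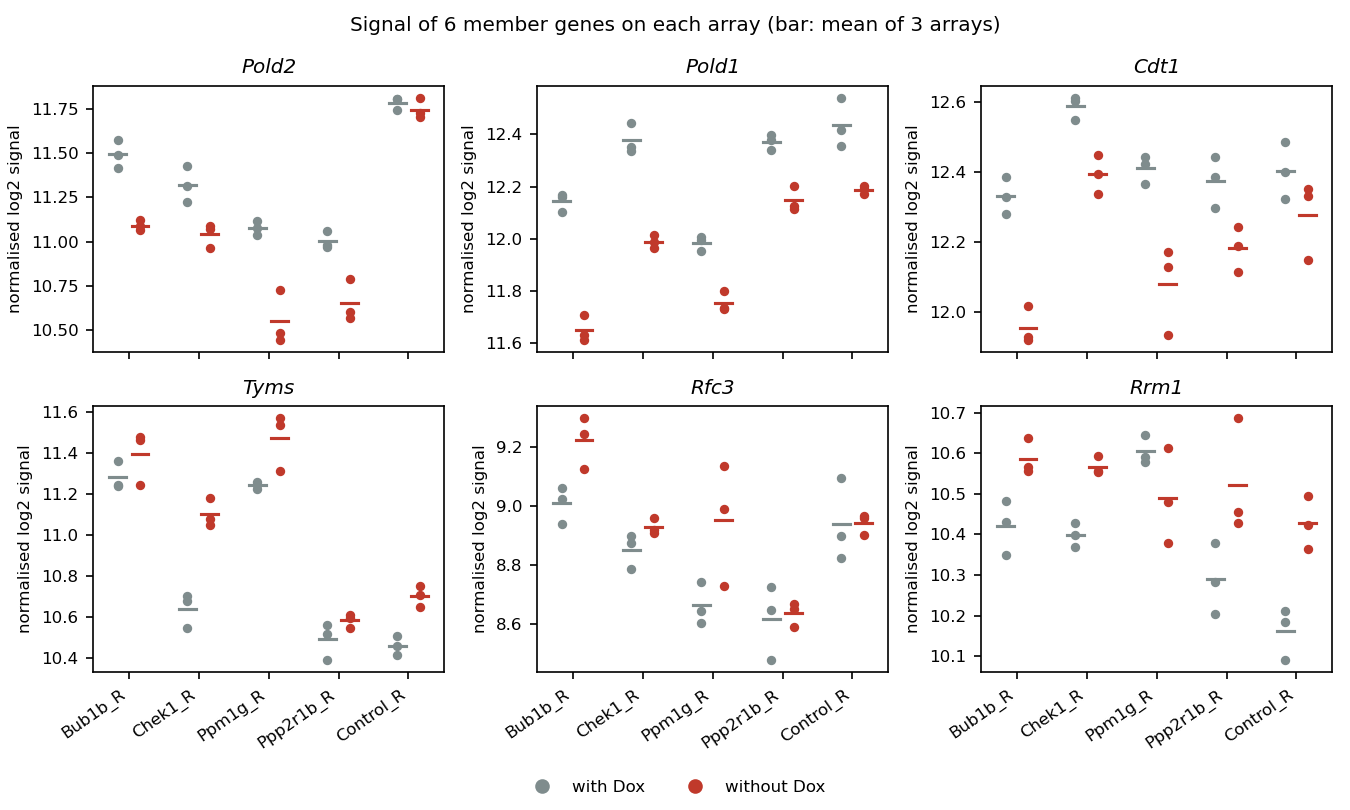
Normalised log2 signal of Pold2, Pold1, Cdt1, Tyms, Rfc3 and Rrm1 on each array (points, grey with Dox and red without) by clone, with a bar at the mean of 3 arrays and a separate vertical scale for each gene. Red points of Pold2 lie below the grey ones in the 4 depleted clones and among them in Control_R, and those of Pold1 lie below in all 5 clones.

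Of the 9 licensing factors, all tested, 4 were lower in the mean change and 0 higher, against 24.4% and 22% of all probes. Cdt1, the loader that is restricted to G1, had the largest fall of the 9 there. In Bub1b_R Cdt1 read 12.33, 12.39 and 12.28 with Dox and 11.92, 11.93 and 12.02 without (-0.38 ± 0.07, adjusted p = 0.000176). In Ppm1g_R it read 12.42, 12.37 and 12.44 with Dox and 12.17, 11.93 and 12.13 without (-0.33 ± 0.07, adjusted p = 0.000818). Both falls were without overlap. The other two depleted clones gave values nearer 0, although the F-test did not separate the clones. Chek1_R had 12.61, 12.60 and 12.55 with Dox and 12.39, 12.34 and 12.45 without (-0.19 ± 0.07, adjusted p = 0.0314), and Ppp2r1b_R 12.44, 12.30 and 12.39 with Dox and 12.24, 12.11 and 12.19 without (-0.19 ± 0.07, adjusted p = 0.0395). Control_R, at 12.32, 12.49 and 12.40 with Dox and 12.35, 12.15 and 12.33 without, overlapped (-0.13 ± 0.07, adjusted p = 0.29). No clone's change in Cdt1 differed from that in Control_R at an adjusted p under 0.05, the lowest being 0.0915 in Bub1b_R. The mean change was -0.27 ± 0.03 (adjusted p = 3.59e-07).

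Among the helicase subunits, Mcm3 (-0.20 ± 0.04), Mcm2 (-0.18 ± 0.04) and Mcm7 (-0.14 ± 0.04) were lower in the mean change, with adjusted p-values of 0.000499, 0.000266 and 0.0105. Mcm4, Mcm5 and Mcm6, which complete the ring, had mean changes of -0.05, -0.07 and 0.00, which did not pass. Dimmer Mcm4 probes (mean signals 106.5 and 128.9, against 9674.8) changed by 0.204 and 0.527 in Ppm1g_R and -0.651 and -0.221 in Ppp2r1b_R. Averaged over its probes, Mcm4 was called higher on withdrawal in Ppm1g_R and lower in Ppp2r1b_R. It then also passed relative to Control_R in Ppm1g_R and by the F-test. By clone the helicase falls were called mainly in Ppp2r1b_R, where Mcm3 was -0.31 ± 0.09 (adjusted p = 0.0107), Mcm2 -0.25 ± 0.07 (adjusted p = 0.0132) and Mcm5 -0.17 ± 0.06 (adjusted p = 0.0322). Of these the fall of Mcm3 in Ppp2r1b_R also differed from Control_R (-0.42 ± 0.12, adjusted p = 0.0367). Ppm1g_R had 1 such call, Mcm2 (-0.22 ± 0.07, adjusted p = 0.0339). Cdc6, the ATPase that loads the helicase with Cdt1, changed by -0.09 to 0.15, and the Cdt1 inhibitor Gmnn by -0.19 to 0.43 with an SE of 0.21, and neither passed in a clone. Gmnn was not detected on any of the 3 arrays of Bub1b_R without Dox or of Control_R with Dox.

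Mcm10, a replication initiation factor, was lower in Bub1b_R (-0.22 ± 0.06, adjusted p = 0.0131), Chek1_R (-0.21 ± 0.06, adjusted p = 0.011) and Ppp2r1b_R (-0.22 ± 0.06, adjusted p = 0.0123). In Control_R the change of Mcm10 was nearly as large at -0.20 ± 0.06, with an adjusted p of 0.0518, and all 9 pairs of 1 array with and 1 without Dox were lower there too. Gins4, the GINS subunit that was tested among the members, was called in opposite directions. It was higher without Dox in Ppm1g_R (0.20 ± 0.06, adjusted p = 0.0214) and lower in Ppp2r1b_R (-0.21 ± 0.06, adjusted p = 0.0148), and the change differed among the depleted clones (F-test, adjusted p = 0.00755).

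The clamp loader subunits did not move together. Rfc3 was 1 of the 4 members that were higher in the mean change (0.15 ± 0.04, adjusted p = 0.00558), while Rfc4 (-0.18 ± 0.05, adjusted p = 0.0038) and Rfc5 (-0.13 ± 0.03, adjusted p = 0.00098) were lower. Rfc1 and Rfc2 had mean changes of -0.04 and -0.03, which did not pass. Rfc3 in Ppm1g_R read 8.65, 8.60 and 8.74 with Dox and 8.99, 9.14 and 8.73 without (0.29 ± 0.09, adjusted p = 0.0153). In Bub1b_R it read 9.06, 8.94 and 9.03 with Dox and 9.30, 9.25 and 9.13 without (0.21 ± 0.09, adjusted p = 0.0716), and in Chek1_R 8.79, 8.90 and 8.88 with Dox and 8.91, 8.92 and 8.96 without (0.08 ± 0.09, adjusted p = 0.558). The groups were separate in Bub1b_R and Chek1_R and overlapped by 1 array in Ppm1g_R. Ppp2r1b_R, at 8.65, 8.48 and 8.73 with Dox and 8.59, 8.67 and 8.65 without, and Control_R, at 8.82, 9.10 and 8.90 with Dox and 8.97, 8.96 and 8.90 without, overlapped.

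Rfc5 fell in Ppp2r1b_R (-0.36 ± 0.06, adjusted p = 9.69e-05) and in Bub1b_R (-0.21 ± 0.06, adjusted p = 0.0102), and changed by 0.01 in Chek1_R and 0.05 in Ppm1g_R. This difference among the clones passed the F-test (adjusted p = 0.00215), and the falls in Ppp2r1b_R (-0.42 ± 0.08, adjusted p = 0.0025) and Bub1b_R (-0.28 ± 0.08, adjusted p = 0.0294) differed from Control_R. Rfc4 passed in Ppm1g_R alone (-0.32 ± 0.10, adjusted p = 0.0193). Pcna, the clamp itself, changed by -0.03 to 0.14 in the depleted clones and by 0.49 ± 0.17 in Control_R (adjusted p = 0.0838).

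Rpa1 and Rpa2, the large and middle subunits of the single-strand binding protein, were lower in the mean change (-0.12 ± 0.02, adjusted p = 0.000372, and -0.19 ± 0.05, adjusted p = 0.00529), and Rpa3, the smallest subunit, was not called (0.08 ± 0.04). Rpa1 had the lowest F-test p of the members (adjusted p = 0.000434). It fell in Ppp2r1b_R (-0.34 ± 0.05, adjusted p = 1.8e-05) and Chek1_R (-0.17 ± 0.05, adjusted p = 0.00815) and changed by -0.04 in Bub1b_R and 0.09 in Ppm1g_R. The fall of Rpa1 in Ppp2r1b_R differed from Control_R (-0.26 ± 0.07, adjusted p = 0.0211). Rpa3 rose in Chek1_R (0.29 ± 0.08, adjusted p = 0.00614), where Rpa1 fell, and its change differed among the depleted clones (F-test, adjusted p = 0.0478).

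Lig1, the ligase that seals Okazaki fragments, rose in Chek1_R (0.36 ± 0.07, adjusted p = 0.000146) and in no other clone, and its change differed among the depleted clones (F-test, adjusted p = 0.00546). The 3 dimmer Lig1 probes changed by 0.30, 0.39 and 0.23 in Chek1_R. Relative to Control_R, where Lig1 changed by -0.18 ± 0.07 (adjusted p = 0.108), the rise was 0.54 ± 0.09 (adjusted p = 0.000177). It reached 0.65 with median scaling and 0.59 without Chek1_R +Dox replicate 1, past 1.5-fold in both. Fen1, the flap nuclease that trims the fragments, had a mean change of 0.04 ± 0.03 and passed in no clone.

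The 4 nucleotide synthesis genes did not share a direction. Tyms, thymidylate synthase, was higher in the mean change (0.22 ± 0.04, adjusted p = 1.65e-05), and by 0.15 without the arrays labelled Chek1_R, where Rfc3 was higher by 0.17. In Chek1_R it read 10.55, 10.68 and 10.70 with Dox and 11.05, 11.08 and 11.19 without (0.46 ± 0.07, adjusted p = 2.2e-05). Ppm1g_R read 11.26, 11.23 and 11.25 with Dox and 11.32, 11.54 and 11.57 without (0.23 ± 0.07, adjusted p = 0.023). Control_R rose as well, from 10.42, 10.46 and 10.51 with Dox to 10.65, 10.75 and 10.71 without (0.24 ± 0.07, adjusted p = 0.0427). In these 3 clones the groups did not overlap. Bub1b_R (11.25, 11.24 and 11.37 with Dox and 11.48, 11.47 and 11.24 without) and Ppp2r1b_R (10.39, 10.52 and 10.56 with Dox and 10.61, 10.60 and 10.55 without) had overlapping groups. No clone's change in Tyms differed from that in Control_R, the lowest adjusted p being 0.155 in Chek1_R, while the changes differed among the depleted clones (F-test, adjusted p = 0.0296). Tyms has 4 further probes. The second brightest (mean signal 443.1, against 2087.4) rose by 0.49 in Chek1_R and changed by 0.07 in Ppm1g_R. Averaged over the gene's probes past the detection filter, the change was 0.15 in Chek1_R and 0.02 in Ppm1g_R. It was 0.04 in the mean of the 4 clones, and none of these passed the threshold. This average took in dim probes with mean signals of 26.2 and 28.1, detected on only 10 and 14 arrays. These dim probes changed by -0.005 and -0.342 in Chek1_R and by -0.133 and -0.097 in Ppm1g_R.

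Rrm1, the large subunit of ribonucleotide reductase, was higher in the mean change (0.11 ± 0.03, adjusted p = 0.00907). In Ppp2r1b_R it read 10.21, 10.28 and 10.38 with Dox and 10.43, 10.46 and 10.69 without (0.23 ± 0.07, adjusted p = 0.0145), and in Control_R 10.09, 10.21 and 10.19 with Dox and 10.49, 10.42 and 10.37 without (0.26 ± 0.07, adjusted p = 0.0187). Its signals in Bub1b_R were 10.35, 10.48 and 10.43 with Dox and 10.57, 10.64 and 10.56 without (0.17 ± 0.07, adjusted p = 0.0864) and in Chek1_R 10.43, 10.37 and 10.40 with Dox and 10.55, 10.59 and 10.56 without (0.17 ± 0.07, adjusted p = 0.0678). All arrays without Dox were above those with Dox in these 4 clones. Ppm1g_R, with 10.65, 10.58 and 10.59 with Dox and 10.38, 10.61 and 10.48 without (-0.12 ± 0.07), differed from Control_R (-0.38 ± 0.10, adjusted p = 0.0112), and the F-test among the depleted clones gave an adjusted p of 0.0361. Rrm2, the small subunit, was lower in Ppp2r1b_R (-0.27 ± 0.08, adjusted p = 0.0163), so the 2 subunits were called in opposite directions in that clone. Tk1, thymidine kinase of the salvage pathway, changed by -0.01 to -0.14 in the depleted clones and by 0.19 ± 0.06 in Control_R (adjusted p = 0.0644). Relative to Control_R, Tk1 was -0.26 in Chek1_R (adjusted p = 0.039), -0.32 in Ppm1g_R (adjusted p = 0.0141) and -0.28 in Ppp2r1b_R (adjusted p = 0.0473). A second detected probe of Tk1 read -0.36 in Control_R. Averaged over both probes, the first 2 of these differences turned, to 0.03 in each clone, and that in Ppp2r1b_R no longer passed.

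Over the members, the change relative to that in Control_R passed an adjusted p under 0.05 for 3 members in Bub1b_R (12.2% of all probes), 2 in Chek1_R (18.3%), 3 in Ppm1g_R (12%) and 5 in Ppp2r1b_R (8.28%). At 1.5-fold 0 members passed in each clone, against 5.15%, 8.99%, 5.27% and 3.28%, the largest difference being 1.45-fold. At an unadjusted p under 0.05, limma passed 10, 7, 7 and 11 members. Of these calls 12 lay below the change in Control_R, and that of Lig1 in Chek1_R lay above it. Without 1 of 6 arrays of Bub1b_R and Control_R the count in Bub1b_R was 1, and without 1 of 7 arrays that in Chek1_R was 1. These arrays were +Dox replicates 2 and 3 and -Dox replicate 1 of Bub1b_R with +Dox replicate 3 and -Dox replicates 2 and 3 of Control_R, and, for Chek1_R, its replicates 1 and 2 in both conditions with +Dox replicate 3 and -Dox replicates 1 and 2 of Control_R. In Ppp2r1b_R the count was 2 or 3 without any 1 of the 12 arrays. The 4 comparisons share the Control_R arrays. The F-test passed for 9 of the 32 members, against 24% of all probes. With median scaling it passed for Rpa3, Lig1 and Tyms and no longer for Gins4, Rfc5, Rpa1, Pola2, Pold1 and Rrm1. Among the 3 clones other than Chek1_R it passed for Gins4, Rfc5, Rpa1, Pold1 and Rrm1. With median scaling, of the 13 calls relative to Control_R those of Lig1 in Chek1_R and Pold2 in Ppm1g_R were left.

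Members were also divided by the E2F letters in their promoter windows, as a description. Of the 7 tested with the letters, 3 were lower and 2 higher in the mean change, with a median of -0.07. Of the 19 with a window lacking the letters, 9 were lower and 2 higher, with a median of -0.08. Over all probes 24.4% were lower and 22% higher in the mean change, with a median of -0.01.

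The level of a member in a clone, as against its response to Dox, was compared with Control_R under the same Dox condition. Without Dox 1 member was higher and 1 lower by 1.5-fold in Bub1b_R, against 10.9% and 11.7% of all probes. Chek1_R had 4 higher and 2 lower (14.1% and 14.6%), Ppm1g_R 5 and 3 (16.7% and 16.8%) and Ppp2r1b_R 4 and 10 (16.6% and 17.1%). With Dox, when the rescue copy is on, the numbers were 2 and 0 in Bub1b_R (6.6% and 6.09%), 5 and 0 in Chek1_R (9.75% and 7.81%), 6 and 1 in Ppm1g_R (14.8% and 14.3%), and 4 and 4 in Ppp2r1b_R (14.2% and 14.1%). With median scaling, which moved the median of all probes by -0.18 in Ppp2r1b_R under both conditions and by 0.10 in Bub1b_R without Dox, the higher and lower members without Dox were 2 and 0 in Bub1b_R, 6 and 1 in Chek1_R and 3 and 16 in Ppp2r1b_R, and with Dox 3 and 13 in Ppp2r1b_R. Without Control_R +Dox replicate 3 the number with Dox was 1 in Bub1b_R and 3 in Chek1_R.

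Pcna, Gmnn, Prim1 and Cdc6 were higher than in Control_R in each of Chek1_R, Ppm1g_R and Ppp2r1b_R, with and without Dox. For Pcna the difference without Dox was 1.17 ± 0.17, 1.60 ± 0.17 and 1.33 ± 0.17, and with Dox 1.53 ± 0.17, 2.06 ± 0.17 and 1.69 ± 0.17. In Bub1b_R, on the array set of Control_R, Pcna differed by -0.19 ± 0.17 without Dox (adjusted p = 0.381) and 0.33 ± 0.17 with Dox (adjusted p = 0.137). Prim1 was 1.25, 1.53 and 1.18 higher without Dox in the first 3 clones, and Cdc6 0.66, 0.92 and 0.59. Gmnn, undetected in Control_R with Dox, was at least 1.70-fold higher in Chek1_R, 2.86-fold in Ppm1g_R and 2.11-fold in Ppp2r1b_R with Dox, taking for each Control_R array the higher of its lowest detected signal and the probe's own. With median scaling Cdc6 in Ppp2r1b_R no longer passed 1.5-fold in either Dox condition. The 3 clones are those of the other array set.

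**Figure D4:**
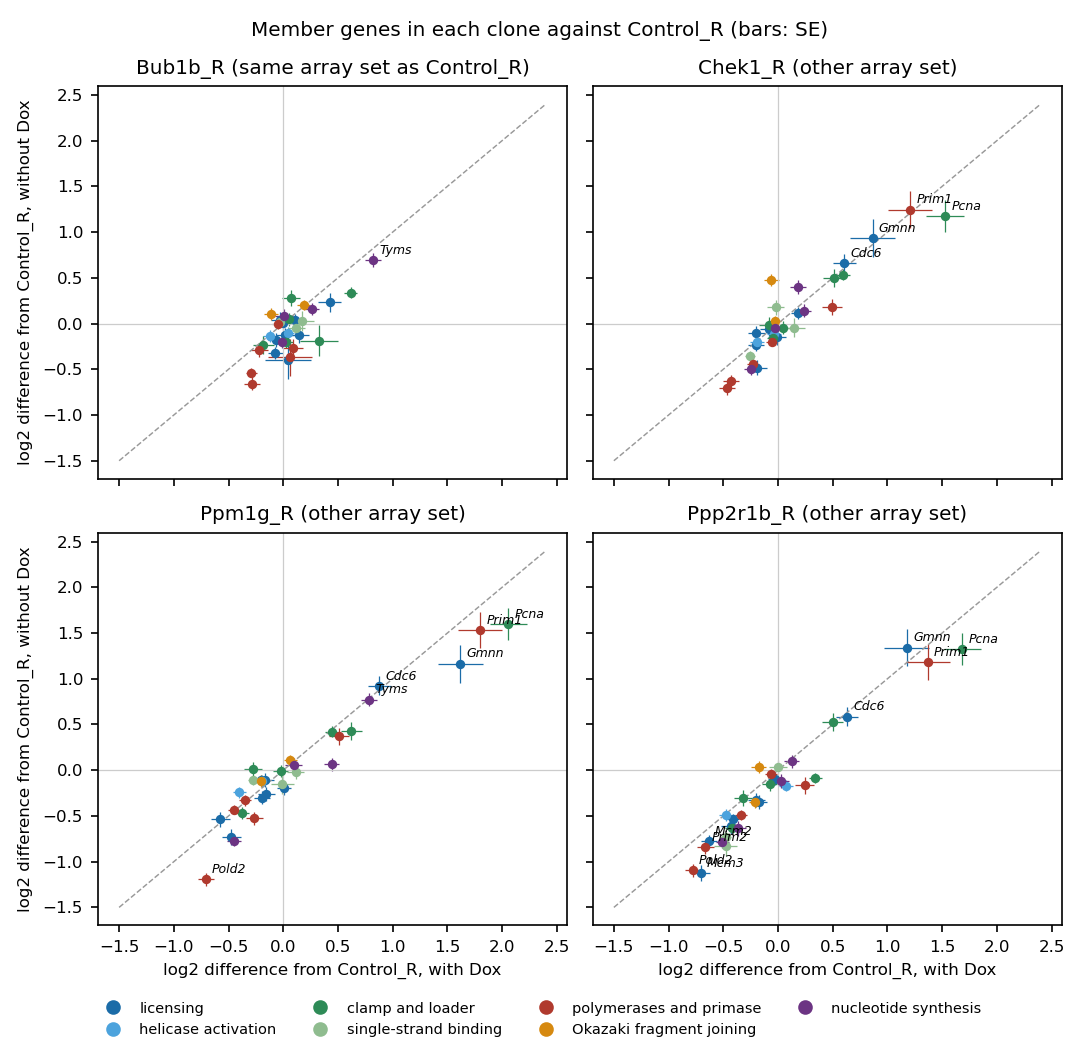
Log2 difference of the 32 tested members from Control_R with Dox (horizontal) and without Dox (vertical), 1 panel a clone, with bars for the SE, colours for the role, a dashed line of equal difference, and names for members past 1.5-fold and an adjusted p under 0.05 in both. Pcna, Gmnn, Prim1 and Cdc6 lie at the upper right in the 3 clones of the other array set, and Tyms alone is named in Bub1b_R.

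Pold2 was below Control_R in each clone, by -0.66 ± 0.07 in Bub1b_R, -0.71 ± 0.07 in Chek1_R, -1.19 ± 0.07 in Ppm1g_R and -1.09 ± 0.07 in Ppp2r1b_R without Dox. With Dox it was already lower, by -0.29 ± 0.07 (adjusted p = 0.00237), -0.46 ± 0.07 (adjusted p = 1.41e-05), -0.71 ± 0.07 (adjusted p = 1.22e-08) and -0.78 ± 0.07 (adjusted p = 2.81e-09) in the same order. With median scaling the difference in Bub1b_R without Dox was -0.41, under 1.5-fold. Tyms was higher than in Control_R in Bub1b_R, by 0.69 ± 0.07 without Dox (adjusted p = 1.8e-08) and 0.82 ± 0.07 with Dox (adjusted p = 2.42e-09), and in Ppm1g_R by 0.77 ± 0.07 and 0.78 ± 0.07. Averaged over the gene's probes the differences were 0.49 and 0.56 in Bub1b_R and 0.48 in Ppm1g_R without Dox, under 1.5-fold. This average also took in the dim Tyms probes described above. Rfc5 was 0.62 ± 0.06 higher in Bub1b_R with Dox (adjusted p = 9.99e-09) and 0.34 ± 0.06 without (adjusted p = 3.68e-05). Ppp2r1b_R stood below Control_R in Mcm3 (-1.13 ± 0.09 without Dox and -0.71 ± 0.09 with Dox), Mcm2 (-0.78 ± 0.07 and -0.64 ± 0.07) and Prim2 (-0.84 ± 0.07 and -0.66 ± 0.07). Without Dox it was also lower in Rpa1, Rpa2, Rfc1, Mcm7, Rrm2 and Tk1, at -0.74, -0.83, -0.63, -0.62, -0.64 and -0.79.

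Genes of the same pathways outside the 36 were read from further lists. Of 26 tested replication genes, 6, 4, 3, 8 and 0 were lower without Dox and 0, 1, 2, 0 and 0 higher in Bub1b_R, Chek1_R, Ppm1g_R, Ppp2r1b_R and Control_R, with 0 past 1.5-fold by limma. Over all probes the lower calls were 12.8%, 16.5%, 11.7%, 12.9% and 3.48% and the higher ones 11.6%, 14.5%, 11.6%, 12.4% and 4.07%, against which the counts of each list below are also to be read. At an unadjusted p under 0.05, 9, 8, 9, 8 and 4 of the 26 passed. Timeless, of the fork protection complex, had a mean change of -0.25 ± 0.04, and Chtf18, of an alternative clamp loader, of -0.24 ± 0.03, with values in Control_R of -0.13 and 0.17. Of 30 tested genes of nucleotide synthesis, 7, 6, 3, 14 and 2 were lower and 2, 4, 2, 0 and 1 higher in the same order. Prps1, which makes the ribose donor for nucleotides, fell in all 4 depleted clones (mean change -0.31 ± 0.03, Control_R -0.07). Mthfd2, a mitochondrial folate enzyme, passed 1.5-fold in Chek1_R (-0.63 ± 0.09) and Ppp2r1b_R (-0.59 ± 0.09) and also fell in Control_R (-0.41 ± 0.09). Among 22 tested G1/S regulators 5, 8, 5, 4 and 1 were higher and 2, 4, 2, 3 and 1 lower. Ccne2, cyclin E2, passed 1.5-fold in all 5 clones, with 1.08 ± 0.16 in Bub1b_R and 0.65 ± 0.16 in Control_R. Ccnd2, cyclin D2, passed it in Bub1b_R (0.87 ± 0.13), Chek1_R (1.06 ± 0.13) and Ppm1g_R (0.93 ± 0.13) and was 0.18 ± 0.13 in Control_R.

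Markers of cell state also moved with the comparison. In these bulk samples, fewer cells of a type and less RNA per cell cannot be told apart. The 8 primitive streak markers were all higher at an adjusted p under 0.05 in Bub1b_R, Chek1_R and Ppm1g_R, 7 of 8 in Ppp2r1b_R and 1 of 8 in Control_R. Their summed normalised signal was 1554 to 1592 with Dox and 6939 to 7264 without in Bub1b_R, 382 to 400.2 and 4380 to 4572 in Chek1_R, 1690 to 1817 and 3753 to 4082 in Ppm1g_R, 695.4 to 739.7 and 1794 to 2017 in Ppp2r1b_R, and 374.9 to 427.1 and 426.4 to 465.7 in Control_R. T (Brachyury) had a mean change of 2.43 ± 0.05 and the homeobox gene Evx1 of 2.41 ± 0.07. In Control_R T also rose, by 0.748 and past 1.5-fold, and Evx1 changed by -0.285. Mixl1, Eomes, Mesp1 and Lhx1 were detected on no array of Ppp2r1b_R in either condition, so that 3 of the 4 detected there were higher. Of 8 ESC markers 4, 3, 4, 6 and 1 were lower in Bub1b_R, Chek1_R, Ppm1g_R, Ppp2r1b_R and Control_R, and 0 were higher. Their sum fell from 67090 to 69260 with Dox to 57050 to 61090 without in Ppp2r1b_R and was 74380 to 78940 and 70880 to 74250 in Control_R. Utf1 (mean change -0.60 ± 0.03) and Esrrb (-0.47 ± 0.03) fell most, and all 8 were detected in every condition, as the label of an ESC line asks. In Control_R Utf1 changed by 0.018. Esrrb fell there by -0.307, beside -0.312 in Chek1_R, -0.302 in Ppm1g_R, -0.453 in Bub1b_R and -0.829 in Ppp2r1b_R.

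Fibroblast feeder markers were read in the same way. Of the 7 tested, 4, 6, 5, 5 and 0 were higher and 1, 1, 1, 0 and 0 lower in the order used above (0 also at an unadjusted p in Control_R). The lower one was Thy1 in each case (-0.32, -0.81 and -0.61). Col3a1 was detected on no array of Chek1_R in either condition, so that 5 of the 6 detected there were higher. The sum of the 10 listed went from 954 to 1016 with Dox to 1131 to 1250 without in Chek1_R, from 1037 to 1079 to 1287 to 1461 in Ppp2r1b_R, from 1190 to 1270 to 1294 to 1330 in Bub1b_R and from 839.3 to 880.1 to 887 to 954.8 in Ppm1g_R, and was 1178 to 1248 and 1211 to 1251 in Control_R. The matrix genes Dcn and Col1a1 rose most, Dcn by at least 1.91-fold in Chek1_R, where it was undetected with Dox, and Col1a1 by 1.06 ± 0.21 there, whereas the fibroblast markers Col1a2, Lum and Postn were detected on no array of any condition. Of the 5 tested proliferation markers 0 passed in any clone by limma, and at an unadjusted p under 0.05 there were 0, 0, 0, 1 and 1 in the same order. The mean changes were -0.08 ± 0.03 for Top2a and -0.03 ± 0.03 for Birc5, and the sum of the 6 on the array lay between 21710 and 26710. The part of the streak, ESC and feeder signals in the members' changes was not tested.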

How the data were processed

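Total RNA of 30 samples was hybridised to Illumina mouse bead arrays. The authors deposited a table of signal intensity per probe, background-corrected but without normalization across arrays, and beside each intensity its detection p-value. Their processing notes name lumi, without a version, and their normalization and call threshold are not given in the sources used here. On 2 arrays 46 and 14 detection cells had been turned into dates. Of these 28 and 6 were converted back, and 18 and 8 were lost. Each lost cell was given the detection p-value of the probe nearest to it in signal on the same array. No column belonged to another sample. The Aurka_R clone was not analysed here.

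Intensities were background-corrected with the deposited detection p-values, quantile-normalized and put on the log2 scale by neqc (offset 16). Of 25697 probes, 15151 were detected (detection p under 0.05) on 3 arrays or more, and these were fitted with limma 3.58.1 in R 4.3.3 (statmod 1.5.0), with 10 condition means and Benjamini-Hochberg adjustment over all 15151 probes. A member was called at an adjusted p under 0.05, with or without a limit of 1.5-fold. The fit was tested on simulated data. The comparisons were each clone without against with Dox, that change minus the change in Control_R, each clone against Control_R within a Dox condition, the mean change of the 4 depleted clones, and an F-test of whether their changes differed. Alternatives were no background correction, median scaling, an offset of 50, other detection filters, a fit on the arrays compared alone, the methods' t-test, 2-fold or no fold limit, the mean of a gene's probes, the replicate block and leaving out each array. The mean and F-test without Chek1_R were added after seeing the data.

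Values by array are given for members called past 1.5-fold on withdrawal, for the 3 largest rises and 3 largest falls in the mean of the 4 clones, and for members past the F-test with a span of 1.5-fold. From each other list the 2 genes with the largest absolute mean change are named. Members and lists were chosen with earlier results of these data known.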

Additional observations from a re-analysis of the deposited data

Results flagged for a closer look

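For 9 members the change on Dox withdrawal differed among the 4 depleted clones by limma's F-test, at adjusted p-values of 0.00755 for Gins4, 0.00215 for Rfc5, 0.000434 for Rpa1, 0.0478 for Rpa3, 0.0386 for Pola2, 0.0162 for Pold1, 0.00546 for Lig1, 0.0361 for Rrm1 and 0.0296 for Tyms. The widest span between clones among them was 0.45 on the log2 scale, for Lig1, so that none spanned 1.5-fold.

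Set against the response of Control_R, 13 pairs of a member and a clone passed an adjusted p under 0.05, and the differences are given here on the log2 scale. In Bub1b_R these were Rfc5 at -0.28, Pold1 at -0.24 and Pold2 at -0.37. The arrays labelled Chek1_R gave Lig1 at 0.54 and Tk1 at -0.26, and Ppm1g_R gave Pold2 at -0.49, Rrm1 at -0.38 and Tk1 at -0.32. Ppp2r1b_R gave Mcm3 at -0.42, Rfc5 at -0.42, Rpa1 at -0.26, Pole at -0.41 and Tk1 at -0.28. Averaged over its detected probes, Tk1 passed in none of these clones.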

How the results depend on the processing

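Counts in this paragraph follow the order Bub1b_R, Chek1_R, Ppm1g_R, Ppp2r1b_R and, for Dox withdrawal, Control_R. Median scaling gave the most changes. The members past an adjusted p under 0.05 on withdrawal then numbered 3, 4, 5, 3 and 0, relative to Control_R 0, 1, 1 and 0, in the mean of the 4 clones 10 and by the F-test 3. It also put Pold2 in Ppm1g_R (1 member) and Lig1 in Chek1_R relative to Control_R (1 member) past 1.5-fold and brought the number with Dox in Ppp2r1b_R to 16. With a fit on only the arrays compared, the withdrawal counts were 3, 5, 3, 1 and 0, the relative ones 1 in Bub1b_R, 1 in Chek1_R and 0 in Ppp2r1b_R, and the F-test gave 5, with fewer residual degrees of freedom by construction. Without background correction 1 member, Prim1, undetected there without Dox, passed 1.5-fold in Bub1b_R, and 5 passed the adjusted p in Control_R, as 5 did with the stricter detection filter. No detection filter gave 1 relative call in Chek1_R and 2 in Ppp2r1b_R, and an offset of 50 gave 3 members with Dox in Chek1_R. The methods' t-test passed 1 member in Ppm1g_R, 1 in Ppp2r1b_R and 0 in Control_R on withdrawal. At 2-fold the members differing from Control_R numbered 0, 2, 4 and 5 without Dox and 0, 2, 3 and 3 with Dox. Without a fold limit they were 12, 18, 20 and 23 without Dox, against 52.9%, 60.6%, 64.8% and 65.4% of all probes. With Dox they were 8, 18, 24 and 24, against 39.9%, 49.6%, 61.7% and 61.3%. On withdrawal the counts were 5, 9, 8, 13 and 3, against 24.4%, 30.9%, 23.4%, 25.3% and 7.55%. Relative to Control_R there were 3, 2, 3 and 5, against 12.2%, 18.3%, 12% and 8.28%, and in the mean 18, against 46.4%. The mean of a gene's probes gave 1 relative call in Chek1_R and 1 member in Bub1b_R both without and with Dox, and turned Tk1 relative to Control_R to 0.033 in Chek1_R and 0.026 in Ppm1g_R. Without the arrays labelled Chek1_R, chosen after seeing the data, the F-test gave 5, with 1 clone fewer compared, and Lig1 in the mean turned to -0.007. The cause of the other changes was not tested.

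Leaving out 1 array at a time, members past 1.5-fold ranged from 0 to 1 on withdrawal in Ppm1g_R, Ppp2r1b_R and Control_R and relative to Control_R in Chek1_R, from 1 to 2 with Dox in Bub1b_R and from 3 to 5 with Dox in Chek1_R. Those past the adjusted p ranged from 3 to 5 in Bub1b_R, 4 to 8 in Ppm1g_R, 6 to 12 in Ppp2r1b_R and 1 to 4 in Control_R on withdrawal, and relative to Control_R from 1 to 3 in Bub1b_R, 1 to 2 in Chek1_R and 2 to 3 in Ppp2r1b_R. Over these omissions, 951 values of single called members kept their direction and side of the threshold, 177 fell short of it and 0 reversed.

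The replicate numbers did not pair the arrays, as deviations of same-numbered arrays with and without Dox correlated at -0.084 to 0.131. The replicate block is a term for the replicate number shared by all clones, so it cannot take up a pairing within a clone. With it the withdrawal counts were 5, 9, 8, 13 and 3, the relative ones 3, 2, 3 and 4, the mean count 17 and the F-test count 8. Precision is limited by 3 arrays a condition, and for Gmnn and Prim1 by signals near background.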
